A study of Mus musculus with 24 samples.

Results

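The genes described here encode the subunits of voltage-gated sodium channels, voltage-gated calcium channels, the hyperpolarization-activated HCN channels and the sodium leak channel Nalcn. They were taken from the 24079 rows of the count table by symbol (Scn followed by a number and a or b, Cacna, Cacnb and Cacng genes, the HCN genes, and Nalcn), which gave 45 genes. By role they comprise 25 pore subunits (10 sodium, 10 calcium, 4 HCN and Nalcn), 16 small auxiliary subunits (4 sodium beta, 4 calcium beta and 8 gamma) and 4 alpha2delta subunits. Pore and auxiliary subunits differ in size, with a median coding sequence of 5952 bases (range 2337 to 7143) for the pore genes, 885 bases (range 645 to 2031) for the small auxiliary genes and 3370.5 bases for the alpha2delta genes.

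The study compared rpS6P-/- knockin mice, in which the phosphorylation sites of ribosomal protein S6 (rpS6) are replaced by alanine throughout the body, with wild-type littermates of the same C57Bl/6/Sv129/ICR background, using both sexes. The dorsal striatum (DS) and the nucleus accumbens (Acb) were dissected, and RNA was sequenced from whole lysates and from heavy polysomal fractions, which hold mRNAs carrying 4 or more ribosomes. Each of the 8 groups of region, genotype and kind of RNA had 3 libraries, each from the pooled tissue of more than 1 mouse, so 24 libraries in all. The age of these mice and the sex of each pool were not given in the sources used here, and no group received a drug.

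Pore-forming alpha subunits fold into the whole ion pathway of sodium and calcium channels, whereas HCN channels assemble from several pore subunits. Beta subunits of sodium channels are single-pass membrane proteins that tune gating and surface delivery, calcium channel beta subunits are cytosolic, and alpha2delta subunits are extracellular proteins anchored to the membrane that help calcium channels reach terminals. Several gamma subunits, known as TARPs, bind AMPA-type glutamate receptors rather than calcium channels. Medium spiny neurons, the principal cells of both regions, rely on these channels for their spiking, for calcium entry and for synaptic integration.

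Assigned reads ranged from 9280589 to 20259509 per lysate library and from 11109431 to 34703044 per heavy polysomal library, and the 45 genes took 0.307 to 0.435% and 0.367 to 0.529% of them. Of the 11 listed marker genes of medium spiny neurons, 10 were measured and none was at 0 in all libraries of a group; their summed level was 3795 to 4261 CPM (counts scaled to library size with TMM normalisation) in lysates and 5098 to 6798 CPM in heavy polysomal fractions. The 7 cortical excitatory markers (among them Slc17a7 and Neurod6) summed to 71.9 to 222 CPM in the Acb libraries and to 761 to 1027 CPM in the DS libraries, without overlap. Astrocyte, cholinergic, microglial and choroid plexus lists were higher in the Acb in every lysate comparison. These values accompany each comparison of regions below, and their part in the results was not tested. In such bulk tissue fewer cells of a type and less RNA per cell cannot be told apart. P-values measure the spread between the libraries of a group, each a pool of mice.

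Beta subunits were the most abundant channel mRNAs per unit of length. Scn4b, the sodium channel beta subunit linked to resurgent sodium current, led with a mean of 189.5 CPM per kb of transcript over all libraries and took 17.8 to 33.2% of all reads of these genes. Scn2b, another sodium beta subunit, followed at 112.6. Further beta subunits of high level were Cacnb1 at 61.2, Cacnb3 at 55.7, Scn3b at 41.8 and Cacnb4 at 40.0. The alpha2delta subunits Cacna2d3 and Cacna2d1, partners of presynaptic calcium channels, stood at 35.1 and 24.2. Among pore subunits the highest were Scn2a1 at 19.4, Scn8a at 15.8, Hcn2 at 15.7 and Nalcn at 12.2 CPM per kb, so that no pore subunit reached the level of these beta subunits. Scn2a1 (Scn2a in RefSeq) and Scn8a encode the sodium channels Nav1.2 and Nav1.6 of axon initial segments.

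**Figure D1:**
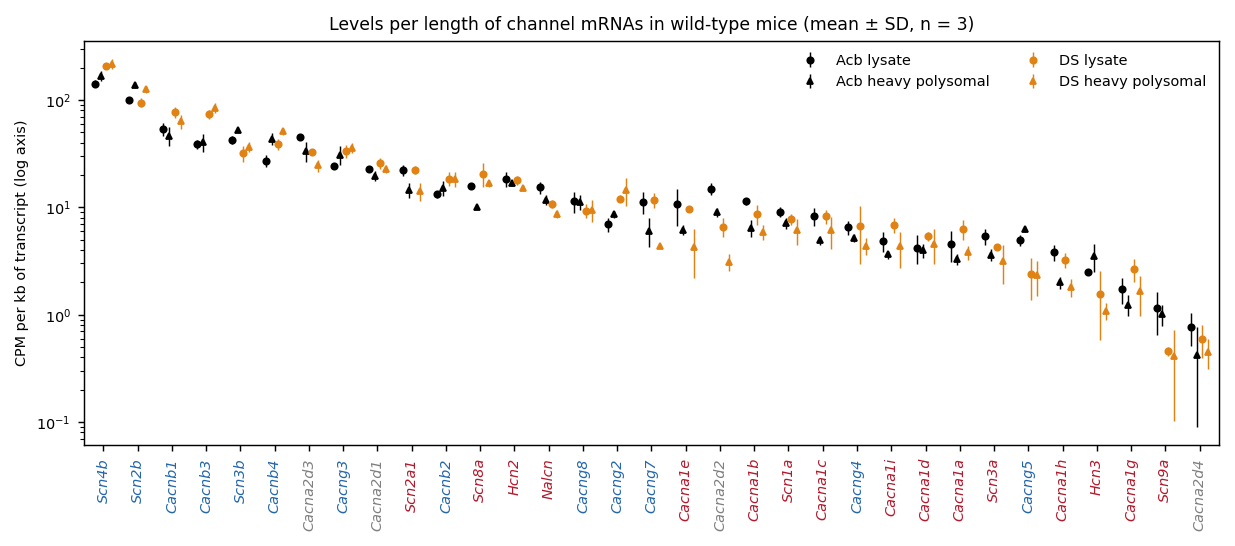
Level per length (CPM per kb of transcript, log axis) of 33 channel mRNAs with at least 50 reads on average, in wild-type lysates (circles) and heavy polysomal fractions (triangles) of the Acb (black) and DS (orange), as mean ± SD of 3 libraries. Gene names are red for pore, blue for small auxiliary and grey for alpha2delta subunits; blue names fill most of the left end, with Scn4b highest, and red names fill most of the right end.

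At the other end, the skeletal muscle sodium channel Scn4a had 4 reads in all 24 libraries together and the retinal calcium channel Cacna1f had 10, and the sensory neuron channels Scn10a and Scn11a had 31 and 96. A library without a read allows up to 3 reads for such a gene. Cacna1s, the skeletal muscle calcium channel, and the gamma subunits Cacng1 and Cacng6 were also detected by few reads.

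Scn2b and Scn4b are neighbours on the forward strand of chromosome 9, at chr9:45117876-45130070 and chr9:45138624-45154155 (GRCm38.p6), with 8553 bases between them. The sequences around their starts, from 250 bases before to 50 bases after the start annotated by RefSeq in GRCm38.p6, are shown because the 2 most abundant channel genes lie side by side and yet only Scn4b passed a test between regions, as described below. They span chr9:45117626-45117925 for Scn2b and chr9:45138374-45138673 for Scn4b, both on the forward strand, and capitals mark a CCAAT box read on either strand.
Scn2b: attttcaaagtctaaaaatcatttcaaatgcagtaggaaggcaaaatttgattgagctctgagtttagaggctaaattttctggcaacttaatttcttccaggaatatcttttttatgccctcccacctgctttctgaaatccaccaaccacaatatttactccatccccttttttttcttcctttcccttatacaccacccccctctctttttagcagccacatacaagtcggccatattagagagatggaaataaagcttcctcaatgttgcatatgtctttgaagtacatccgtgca
Scn4b: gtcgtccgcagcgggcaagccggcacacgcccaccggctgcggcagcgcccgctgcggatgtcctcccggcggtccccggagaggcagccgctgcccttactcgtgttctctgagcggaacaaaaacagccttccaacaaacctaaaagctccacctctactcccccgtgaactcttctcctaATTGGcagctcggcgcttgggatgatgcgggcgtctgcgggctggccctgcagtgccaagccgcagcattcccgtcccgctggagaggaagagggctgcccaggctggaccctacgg
The Scn2b window had a GC content of 38.3% and the Scn4b window 66.3%, against a median of 52.7% over 32851 mouse promoters and 59.5% over the 44 promoters found for 33 of the 45 genes. Both windows were searched on both strands for the TATA motif TATAAA, the CCAAT box, the GC box GGGCGG, the E-box CACGTG and the cyclic AMP response motif TGACG. The Scn4b window held 1 CCAAT box, on the reverse strand, and the Scn2b window none of the 5 motifs. The CCAAT box was present in 37.41% of all promoters and in 10 of the 44 channel promoters. The GC box was present in 35.66% and in 18, the cyclic AMP response motif in 20.81% and in 6, the TATA motif in 13.62% and in 2, and the E-box in 7.15% and in 0.

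The genes also lie in clusters. Scn3a, Scn2a1, Scn1a, Scn9a and Scn7a span 1327.8 kb of chromosome 2, Cacng7, Cacng8 and Cacng6 span 103.6 kb of chromosome 7, and Cacng1, Cacng4 and Cacng5 span 211.8 kb of chromosome 11. Members of a cluster did not share a level: on chromosome 2, Scn2a1 had a mean of 19.4 CPM per kb, whereas Scn7a was among the rarest of the 45.

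The level of each mRNA in heavy polysomal fractions was compared with its level in whole lysates within a region and genotype. Both were scaled to library size, so a ratio is relative to the other mRNAs. It does not give the share of a gene's mRNA that is on heavy polysomes. In wild-type Acb, most of the channel mRNAs that were lower in heavy polysomal fractions encoded pores, and the small auxiliary mRNAs that passed the test were divided. Of 22 pore genes tested, 8 were lower and 0 higher; of 16 small auxiliary genes, 2 were lower and 2 higher; of 4 alpha2delta genes, 2 were lower. These 14 calls of 42 genes (33.3%) compare with 25.9% of all genes (13% higher and 12.9% lower) called by the same test, edgeR's quasi-likelihood test with Benjamini-Hochberg adjustment at 0.05. The median log2 ratio was -0.54 for pore and 0.09 for small auxiliary genes. Without wild-type Acb lysate replicate 1, 7 of the 45 genes were called. The summed CPM of several marker lists moved with this contrast, and their part in it was not tested. The medium spiny neuron markers given above and 4 markers of parvalbumin and somatostatin interneurons (182 to 260.4 CPM summed in lysates, 268.7 to 595 CPM in heavy polysomal fractions) were higher in heavy polysomal fractions, as were, in wild-type Acb, 6 oligodendrocyte markers (3374 to 3916 and 4247 to 5413 CPM) and 6 microglial markers (178 to 205 and 225 to 299 CPM). In wild-type DS the oligodendrocyte and microglial sums were also higher (2637 to 3261 and 3397 to 3695 CPM, 98.5 to 119 and 141 to 152 CPM). The sum of 3 cholinergic markers was lower, at 50.9 to 62.8 and 32.2 to 48.5 CPM in wild-type Acb and 25.8 to 37.9 and 14.0 to 20.1 CPM in wild-type DS. The sum of 6 astrocyte markers was also lower in wild-type DS (1672 to 1791 CPM in lysates, 1102 to 1517 CPM in heavy polysomal fractions). It overlapped in wild-type Acb (2302 to 2801 and 1752 to 2599 CPM).

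Among pores, calcium channels gave the lowest ratios that passed the test. Cacna1h, a low-threshold T-type channel, had 37.2, 27.9 and 28.9 CPM in the 3 wild-type Acb lysates and 14, 17.9 and 17.4 CPM in the matching heavy polysomal fractions. Cacna1b, the N-type channel of presynaptic terminals, had 86.2, 85.3 and 74 CPM in lysates and 41.1, 42.4 and 55.4 CPM in heavy polysomal fractions. Every lysate exceeded every heavy polysomal library for both genes. The log2 ratios were -0.99 ± 0.21 (SE; edgeR adjusted p = 0.000874) for Cacna1h and -0.88 ± 0.16 (edgeR adjusted p = 0.000213) for Cacna1b. Cacna1e, the R-type channel, had 204, 186 and 92.5 CPM in lysates and 99, 81.4 and 97.6 CPM in heavy polysomal fractions, so that lysate replicate 3 lay within the heavy polysomal range. Its log2 ratio was -0.85 ± 0.20 (edgeR adjusted p = 0.00165), and without wild-type Acb lysate replicate 1 the adjusted p was 0.0507.

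Among sodium channel pores, Scn2a1 had 219, 204 and 171 CPM in wild-type Acb lysates and 108, 132 and 149 CPM in heavy polysomal fractions. Scn8a had 177, 172 and 192 CPM and 112, 116 and 119.9 CPM. Lysates and heavy polysomal fractions did not overlap for either gene. Their log2 ratios were -0.66 ± 0.15 (edgeR adjusted p = 0.00155) and -0.69 ± 0.14 (edgeR adjusted p = 0.000495). Cacna1c, the main L-type channel of brain, was also lower, at -0.81, as were Scn3a, expressed most in developing brain, at -0.63 and Nalcn at -0.44; Scn3a lost its call without wild-type Acb lysate replicate 1 (adjusted p = 0.082), and Nalcn without that library or heavy polysomal replicate 1 or 3 (adjusted p up to 0.183). Hcn2 and Hcn3, HCN pores, which carry the depolarizing h-current, did not pass the test, with log2 ratios of -0.17 and 0.45. Among alpha2delta genes, Cacna2d2 had a log2 ratio of -0.78 ± 0.16 (edgeR adjusted p = 0.000596) and Cacna2d3 of -0.49 ± 0.15 (edgeR adjusted p = 0.0184), the latter losing its call without lysate replicate 1 or 2 or heavy polysomal replicate 1 or 3 (adjusted p up to 0.103).

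Of the small auxiliary genes, Cacnb4, a calcium channel beta subunit mutated in the lethargic mouse, had 252, 222 and 198 CPM in wild-type Acb lysates and 378, 304 and 397 CPM in heavy polysomal fractions. Scn2b had 478, 443 and 469 CPM and 619, 617 and 693 CPM. Both were higher in every heavy polysomal library than in any lysate. Their log2 ratios were 0.63 ± 0.15 (edgeR adjusted p = 0.0018) and 0.42 ± 0.13 (edgeR adjusted p = 0.0176). The call of Scn2b was lost without lysate replicate 1 or 2 or heavy polysomal replicate 3 (adjusted p up to 0.0936).

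Cacng7, a TARP, went the other way although its coding sequence has 825 bases. It had 31, 23.4 and 20.1 CPM in wild-type Acb lysates and 17.4, 9.39 and 13.4 CPM in heavy polysomal fractions. In wild-type DS it had 26.9, 21.3 and 29.1 CPM in lysates and 9.85, 9.69 and 9.62 CPM in heavy polysomal fractions. In both regions every lysate exceeded every heavy polysomal library. The log2 ratio of Cacng7 was -0.94 ± 0.25 in wild-type Acb (edgeR adjusted p = 0.00524), -1.50 ± 0.26 in rpS6P-/- Acb (edgeR adjusted p = 0.000199), -1.41 ± 0.26 in wild-type DS (edgeR adjusted p = 0.000111) and -1.68 ± 0.25 in rpS6P-/- DS (edgeR adjusted p = 2.19e-07). Without wild-type Acb lysate replicate 1 the adjusted p in wild-type Acb was 0.0717. Its genomic neighbour Cacng8, another TARP, did not pass the test in any of the 4 groups, with ratios from -0.30 to 0.11, and Cacng5, a TARP-like gamma subunit with a coding sequence of the same 825 bases, lay between -0.02 and 0.30.

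The calls in wild-type DS had the same split by role. Of 21 pore genes 6 were lower and 0 higher, of 15 small auxiliary genes 1 was lower and 2 higher, and of 4 alpha2delta genes 1 was lower. These 10 calls of 40 genes (25%) compare with 24.3% of all genes (12.8% higher and 11.5% lower), with medians of -0.52 for pore and 0.07 for small auxiliary genes. Cacna1e had 149, 151 and 134 CPM in wild-type DS lysates and 29.9, 69.1 and 90.2 CPM in heavy polysomal fractions, without overlap, a log2 ratio of -1.19 ± 0.23 (edgeR adjusted p = 0.00018). Cacna2d2 followed at -1.11 ± 0.23 (edgeR adjusted p = 0.000528), Scn2a1 at -0.67 ± 0.16 (edgeR adjusted p = 0.00197) and Cacna1a, the P/Q-type channel of terminals, at -0.71 ± 0.20 (edgeR adjusted p = 0.00971). The higher ones were again Scn2b at 0.41 ± 0.14 and Cacnb4 at 0.40 ± 0.14 (edgeR adjusted p = 0.0295 and 0.0414). Without DS lysate replicate 2, 6 genes were called, and without replicate 3, 5; Scn2b and Cacnb4 lost their calls without either (adjusted p up to 0.177 and 0.193), Cacnb4 also without heavy polysomal replicate 3, and Cacna1a without lysate replicate 3 (adjusted p = 0.0948). Tested directly, none of 42 genes differed between the regions in its heavy polysomal over lysate ratio in wild-type mice, also at an unadjusted p under 0.05, where 4.6% of all genes passed.

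In rpS6P-/- mice the pore medians were -0.49 in Acb and -0.48 in DS, and the small auxiliary medians 0.02 and 0.06. In rpS6P-/- Acb, 6 of 23 pore, 3 of 15 small auxiliary and 1 of 4 alpha2delta genes were lower and none was higher, 10 of 42 genes (23.8%) against 17.2% of all genes (7.7% higher and 9.5% lower). In rpS6P-/- DS, 12 of 22 pore and 3 of 4 alpha2delta genes were lower, and of 16 small auxiliary genes 1 was lower (Cacng7) and 1 higher (Cacng3), 17 of 42 genes (40.5%) against 28.6% of all genes (13.8% higher and 14.8% lower). Cacng4, a TARP, had 25, 38 and 20.0 CPM in rpS6P-/- Acb lysates and 14.7, 10.6 and 10.2 CPM in heavy polysomal fractions, without overlap, a log2 ratio of -1.25 ± 0.27 (edgeR adjusted p = 0.00175). Cacna1e had 193, 179.5 and 144 CPM in rpS6P-/- Acb lysates and 70.6, 77.2 and 62.4 CPM in heavy polysomal fractions. Its log2 ratio was -1.32 ± 0.17 (edgeR adjusted p = 4.42e-06). In rpS6P-/- DS, Cacna1h stood at -1.12 ± 0.22 and Cacna1a at -1.03 ± 0.19 (edgeR adjusted p = 4.53e-05 and 2.78e-05). Without Acb heavy polysomal replicate 2, 6 genes were called in rpS6P-/- Acb, and without DS lysate replicate 2 or 3, 10 in rpS6P-/- DS. With each heavy polysomal library paired with its own lysate, Scn8a and Cacng3 missed the threshold in rpS6P-/- DS (adjusted p = 0.0591 and 0.0546).

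**Figure D2:**
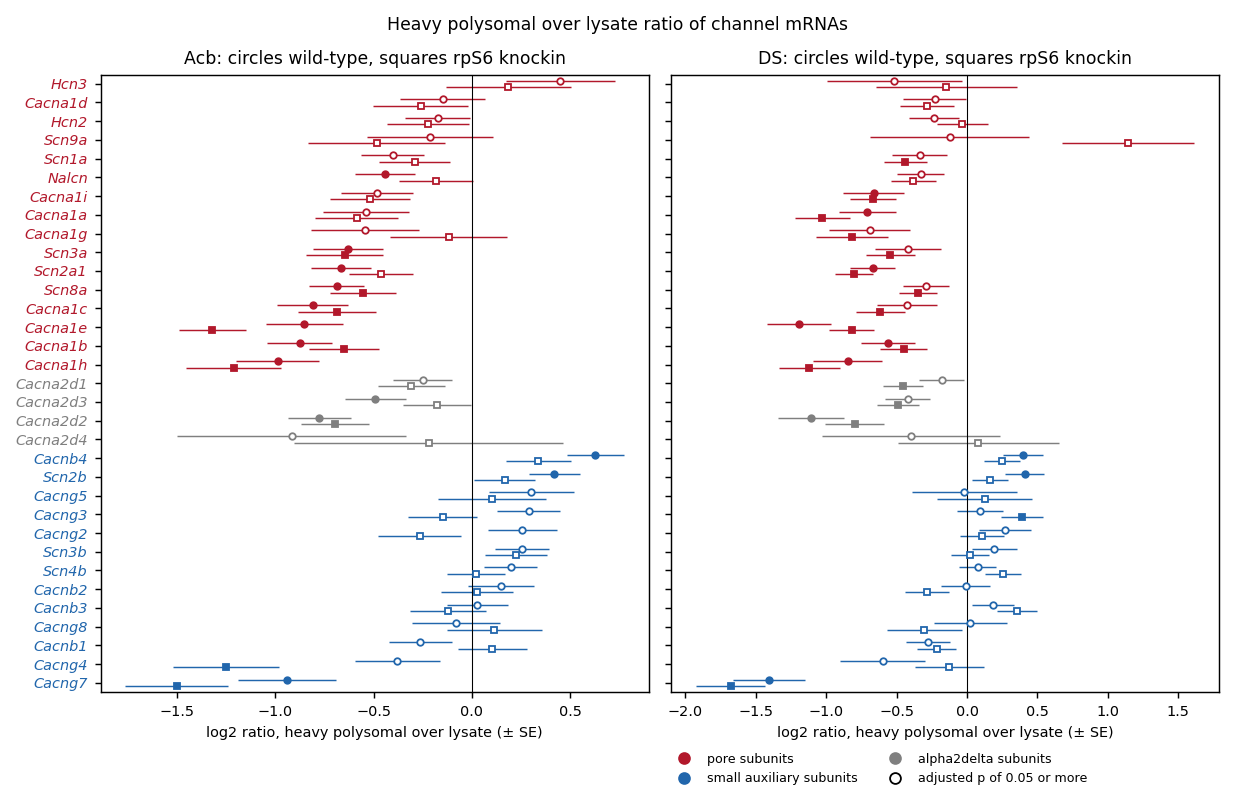
Log2 ratio of heavy polysomal fraction over lysate for 33 channel mRNAs with at least 50 reads on average (points, with SE bars), in the Acb (left) and DS (right), for wild-type (circles) and rpS6P-/- mice (squares). Filled symbols passed an adjusted p of 0.05; red pore genes lie mostly left of 0, blue small auxiliary genes lie on both sides of 0, with Cacng7 far to the left in all 4 groups and Cacng4 in rpS6P-/- Acb.

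The contrast by role could be followed in single libraries. The mean log2 CPM of the 18 pore genes minus that of the 14 small auxiliary genes with at least 50 reads on average was -0.95 to -0.73 in wild-type Acb lysates and -1.51 to -1.21 in wild-type Acb heavy polysomal fractions. In wild-type DS it was -1.43 to -1.08 in lysates and -2.21 to -1.50 in heavy polysomal fractions. Lysates and heavy polysomal fractions did not overlap in either region. In rpS6P-/- mice the difference was -1.07 to -0.77 in Acb lysates and -1.23 to -0.97 in Acb heavy polysomal fractions, which overlapped, and -1.31 to -1.09 and -1.84 to -1.49 in DS, which did not. Set beside the lysate it came from, the heavy polysomal fraction had the lower value in 12 of 12 pairs, by 0.022 in the closest pair (rpS6P-/- Acb replicate 2). Between genotypes the Acb heavy polysomal values overlapped, with means of -1.35 ± 0.15 (SD, n = 3) in wild-type and -1.10 ± 0.13 (SD, n = 3) in rpS6P-/- mice.

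**Figure D3:**
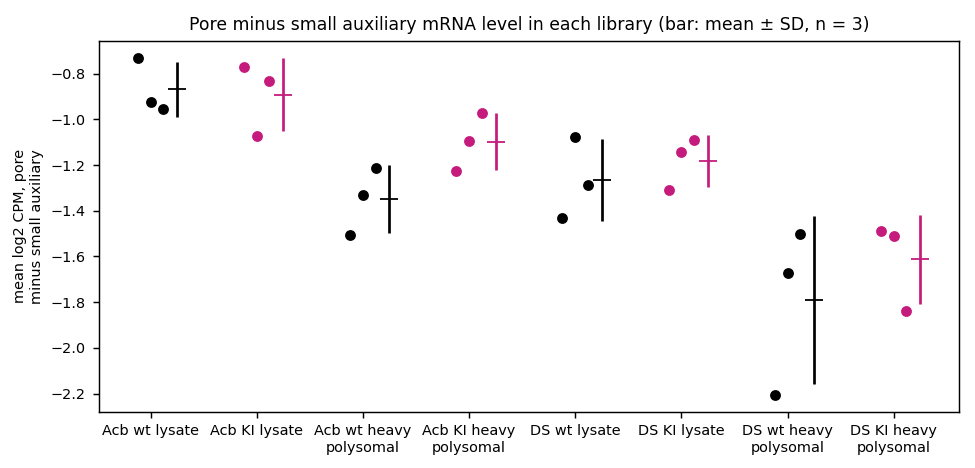
Mean log2 CPM of 18 pore genes minus that of 14 small auxiliary genes in each library (points), with the mean ± SD of the 3 libraries of a group beside them, for wild-type (black) and rpS6P-/- mice (magenta). Group means are lower in heavy polysomal fractions than in lysates of the same region and genotype, and lower in the DS than in the Acb for the same genotype and kind of RNA; the lysate and heavy polysomal points of rpS6P-/- Acb overlap, although each heavy polysomal fraction lies below its own lysate.

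Coding length moved with this contrast over all genes. In wild-type Acb, genes with a coding sequence under 1 kb had a median log2 ratio of 0.47, genes of 1 to 2 kb 0.064, genes of 2 to 4 kb -0.32 and genes over 4 kb -0.74. In wild-type DS these medians were 0.51, 0.033, -0.38 and -0.77. The pore medians of -0.54 and -0.52 lay between those of the pair of longer classes, and the small auxiliary medians of 0.09 and 0.07 between those of the pair of shorter classes. The median coding lengths, 5952 bases for pore and 885 bases for small auxiliary genes, fall in the longest and the shortest class. Both kinds were thus less extreme than the class that holds their median length. With the trend on transcript length removed from every library, the difference between the pore and small auxiliary medians was smaller and kept its sign in 3 of the 4 groups, at -0.19 in wild-type Acb, 0.020 in rpS6P-/- Acb, -0.19 in wild-type DS and -0.14 in rpS6P-/- DS. Pore genes called lower then numbered 3 in wild-type Acb, 2 in rpS6P-/- Acb and 0 in wild-type DS. In rpS6P-/- DS 0 pore genes were then lower and 2 higher. After the trend on coding length was removed instead, a step chosen after seeing the data, the difference changed sign in all 4, from -0.63 to 0.24 in wild-type Acb, from -0.51 to 0.26 in rpS6P-/- Acb, from -0.59 to 0.32 in wild-type DS and from -0.55 to 0.54 in rpS6P-/- DS. None of the pore genes was then lower at an adjusted p under 0.05 in wild-type Acb, wild-type DS or rpS6P-/- DS, and 1 was (Cacna1e) in rpS6P-/- Acb. Pore genes called higher then numbered 1 in wild-type Acb, 1 in wild-type DS and 3 in rpS6P-/- DS. Of the small auxiliary genes, 3 of 16 were then lower in wild-type Acb and 5 of 15 in rpS6P-/- Acb. In the DS 3 of 15 were lower in wild-type and 4 of 16 in rpS6P-/- mice. Higher was 1 small auxiliary gene in each wild-type region. Whether length or another property that goes with it sets the contrast was not tested.

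Some genes kept their direction after the trend on coding length was removed, and others did not. With the trend removed, Cacng7 had log2 ratios of -1.36 in wild-type Acb and -1.77 in wild-type DS (edgeR adjusted p = 0.000126 and 3.35e-07). Cacng4, not called in wild-type mice with the trend left in, was lower at -0.71 and -0.86 (edgeR adjusted p = 0.0211 and 0.0196). Cacnb4 remained higher, at 0.58 and 0.46 (edgeR adjusted p = 0.00313 and 0.0247). Scn2b stood at -0.040 and -0.038, and Scn8a at -0.037 in wild-type Acb and 0.48 in wild-type DS, where it passed the test (edgeR adjusted p = 0.0275). In rpS6P-/- DS, Scn8a went from called lower to called higher, at 0.48 (edgeR adjusted p = 0.00746). With the trend on transcript length removed instead, it was also called higher there, at 0.46 (edgeR adjusted p = 0.0126).

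Acb and DS were then compared within a genotype and kind of RNA. In wild-type lysates 15 of 41 channel genes (36.6%) differed, against 12.7% of all genes (6.54% higher and 6.15% lower). By role, 3 of 21 pore genes were higher in Acb and none lower, 2 of 16 small auxiliary genes were higher and 8 lower, and 2 of 4 alpha2delta genes were higher. The median log2 ratio of Acb over DS was 0.08 for pore and -0.44 for small auxiliary genes. In heavy polysomal fractions of wild-type mice 9 of 42 genes (21.4%) differed, against 8.15% of all genes (4.72% higher and 3.43% lower), in rpS6P-/- lysates 13 of 42 (31%) against 10.9% (4.84% higher and 6.03% lower), and in rpS6P-/- heavy polysomal fractions 13 of 42 (31%) against 18.6% (7.89% higher and 10.7% lower). The difference between the pore and small auxiliary medians was positive in all 4 comparisons, at 0.52 in wild-type lysates, 0.37 in wild-type heavy polysomal fractions, 0.32 in rpS6P-/- lysates and 0.54 in rpS6P-/- heavy polysomal fractions. It was 0.17 in wild-type heavy polysomal fractions without DS replicate 1, and in rpS6P-/- lysates 0.08 without Acb replicate 1 and 0.13 without DS replicate 3. The rpS6P-/- lysate value was also 0.065 over genes with at least 50 reads on average (a choice made after seeing the data), 0.13 with a replicate block and 0.16 with edgeR's filterByExpr, and in wild-type lysates 9 genes were called when all 24 libraries were fitted together. In rpS6P-/- lysates 8 genes were called without Acb replicate 3 and 7 without DS replicate 2, and in rpS6P-/- heavy polysomal fractions 8 without DS replicate 2. The cortical excitatory markers given above were lower in Acb in the same libraries.

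Cacna2d2, an alpha2delta subunit, was higher in the Acb in all 4 comparisons. It had 72.7, 93.3 and 79.7 CPM in wild-type Acb lysates and 39.3, 42.5 and 28.2 CPM in wild-type DS lysates. In heavy polysomal fractions it had 45, 49.3 and 54.5 CPM and 19, 18.8 and 13.5 CPM. The regions did not overlap in either kind of RNA. The log2 ratio of Acb over DS was 1.18 ± 0.17 in wild-type lysates (edgeR adjusted p = 8.44e-07), 1.55 ± 0.20 in wild-type heavy polysomal fractions (edgeR adjusted p = 0.000104), and 1.38 ± 0.16 and 1.46 ± 0.19 in rpS6P-/- mice (edgeR adjusted p = 2.01e-08 and 1.92e-05).

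Cacng5 had 21.4, 24.5 and 23.9 CPM in wild-type Acb heavy polysomal fractions and 6.2, 12.2 and 7.68 CPM in those of the DS, with all Acb libraries above all DS libraries, a log2 ratio of 1.42 ± 0.27 (edgeR adjusted p = 0.00259), and was higher in the other comparisons too, at 1.07, 1.17 and 1.12, each call lost without either of a pair of libraries (DS replicate 1 or 3, Acb replicate 3 or DS replicate 2, and replicate 3 of Acb or DS, with adjusted p up to 0.071, 0.126 and 0.08). Hcn3, an HCN channel, had 15.6, 9.49 and 17.5 CPM in wild-type Acb heavy polysomal fractions and 3.65, 5.19 and 4.15 CPM in those of the DS, a log2 ratio of 1.72 ± 0.32 (edgeR adjusted p = 0.00243), whereas in wild-type lysates, where 1 DS library exceeded the Acb libraries, it was 0.72 ± 0.39 (edgeR adjusted p = 0.267). In rpS6P-/- heavy polysomal fractions the ratio of Hcn3 was 1.72 ± 0.29 (edgeR adjusted p = 0.000293). Scn9a, a sodium channel best known from pain neurons, was higher in lysates of both genotypes, at 1.35 ± 0.39 and 2.01 ± 0.46 (edgeR adjusted p = 0.0147 and 0.00189), and did not pass the test in heavy polysomal fractions; its wild-type call was lost without Acb replicate 1 or 3 or DS replicate 1 (adjusted p up to 0.118). Nalcn and Cacna2d3 were higher in wild-type Acb lysates, at 0.54 ± 0.14 and 0.50 ± 0.12 (edgeR adjusted p = 0.00609 and 0.00391), Nalcn losing its call without Acb replicate 1 or DS replicate 2 (adjusted p up to 0.0761).

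Lower in the Acb in all 4 comparisons were Cacnb3, a calcium channel beta subunit, and Cacng2, the TARP stargazin. Cacnb3 had 96.8, 86.2 and 103 CPM in wild-type Acb lysates and 172, 174 and 204 CPM in wild-type DS lysates. The Acb libraries lay below the DS libraries, and the log2 ratio was -0.91 ± 0.13 (edgeR adjusted p = 9.03e-07). Cacng2 stood at -0.77 ± 0.17 (edgeR adjusted p = 0.000901) in wild-type lysates and at -0.75, -0.56 and -0.95 in the other comparisons; its call was lost in wild-type heavy polysomal fractions without any library but DS replicate 2 (adjusted p up to 0.143) and in rpS6P-/- lysates without Acb replicate 3 or any DS replicate (up to 0.177). Cacnb4 was lower in lysates of both genotypes, at -0.48 ± 0.12 and -0.56 ± 0.10 (edgeR adjusted p = 0.0038 and 6.12e-05), the wild-type call being lost without DS replicate 1 (adjusted p = 0.0618). Scn8a was lower in the Acb in 3 comparisons, with -0.72 ± 0.15 in wild-type heavy polysomal fractions (edgeR adjusted p = 0.00577), the only sodium channel pore lower in the Acb. In rpS6P-/- mice its calls were lost without any 1 of 4 libraries (Acb replicate 1 or any DS replicate in lysates, Acb replicate 1 or 2 or DS replicate 2 or 3 in heavy polysomal fractions, adjusted p up to 0.274 and 0.111).

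The neighbouring genes Scn2b and Scn4b are set side by side here; the difference between them was not tested. Scn4b had 767, 657 and 697 CPM in wild-type Acb lysates and 989.5, 1018 and 1073 CPM in wild-type DS lysates. Scn2b had 478, 443 and 469 CPM and 487, 404 and 429.5 CPM. The regions were apart for Scn4b and overlapped for Scn2b. The log2 ratio of Acb over DS was -0.51 ± 0.10 for Scn4b (edgeR adjusted p = 0.000273) and 0.10 ± 0.11 for Scn2b (edgeR adjusted p = 0.656). In rpS6P-/- mice Scn4b was lower in the Acb at -0.55 ± 0.09 in lysates and -0.81 ± 0.17 in heavy polysomal fractions (edgeR adjusted p = 1.54e-05 and 0.00218), and in wild-type heavy polysomal fractions it was -0.36 ± 0.15 (edgeR adjusted p = 0.179). Scn2b did not pass the test in any of the 4 comparisons, with ratios from -0.031 to 0.15. Another sodium beta subunit, Scn3b, was higher in the Acb of wild-type mice, at 0.44 ± 0.13 in lysates (edgeR adjusted p = 0.0171, up to 0.155 without replicate 1 or 2 of either region).

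**Figure D4:**
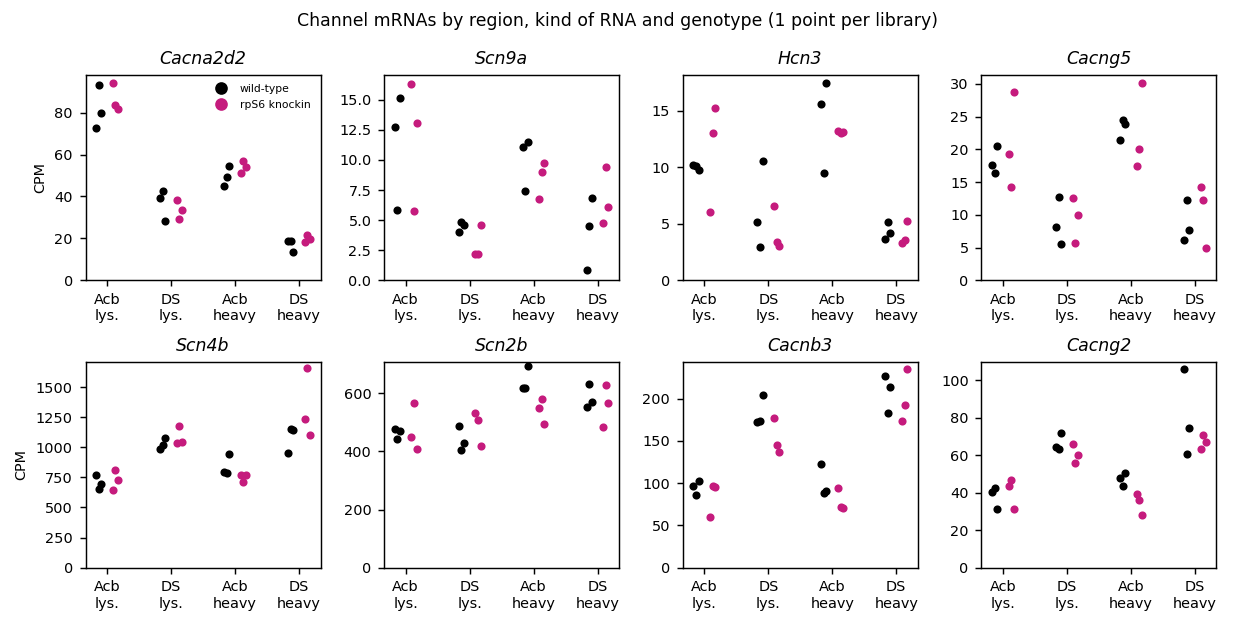
CPM of 8 channel mRNAs in each of the 24 libraries (points), by region and kind of RNA (lys., lysate; heavy, heavy polysomal fraction) and by genotype (black, wild-type; magenta, rpS6P-/-). Cacna2d2, Scn9a, Hcn3 and Cacng5 are mostly higher in the Acb, with overlap for Hcn3 in lysates and for Scn9a in rpS6P-/- heavy polysomal fractions, Scn4b, Cacnb3 and Cacng2 are mostly higher in the DS, and Scn2b overlaps between the regions.

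The comparison of rpS6P-/- with wild-type mice addressed whether the heavy polysomal over lysate ratio or the level of these mRNAs differs without rpS6 phosphorylation. No channel gene passed the edgeR test with Benjamini-Hochberg adjustment in the heavy polysomal fractions or lysates of either region, in the test of translational efficiency (the genotype difference of the heavy polysomal over lysate ratio), or in the test of the genotype difference between the regions. By this test the share of all genes called was low too, with 0% of all genes called in Acb heavy polysomal fractions, 0.0065% in Acb lysates, 0.044% in DS heavy polysomal fractions and 0.122% in DS lysates, 0% in either test of translational efficiency and 0.00592% in the test of the difference between regions. At an unadjusted p under 0.05, 21.7% of all genes passed in Acb heavy polysomal fractions. The paper itself, using DESeq2 and the tool Xtail, reported altered genes in Acb heavy polysomal fractions and in Acb translational efficiency. With DESeq2, 2 channel genes passed in DS lysates, Cacna1e among them, against 0.609% of all genes. It called 0 channel genes in Acb heavy polysomal fractions, Acb lysates, DS heavy polysomal fractions and the difference between regions, against 6.72, 0.0065, 0.107 and 1.4% of all genes, and 0 for translational efficiency, against 0% in either region. At an unadjusted p under 0.05 the tests of translational efficiency passed 1 of 43 channel genes in the Acb (Cacng4, -0.87 ± 0.35) and 0 of 42 in the DS, against 11.9 and 4.9% of all genes, and the test of the difference between regions in heavy polysomal fractions passed 3 of 43 (Cacna1e, Cacng4 and Cacnb1), against 13.8%.

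At an unadjusted p under 0.05, 7 of 43 channel genes (16.3%) differed in Acb heavy polysomal fractions, against 21.7% of all genes. Those lower in rpS6P-/- mice included Cacng4, Cacng2 and Cacna1e, and those higher included Cacna1g and Cacnb1. Cacng4 had 20.1, 17.2 and 17.3 CPM in wild-type and 14.7, 10.6 and 10.2 CPM in rpS6P-/- heavy polysomal fractions of the Acb. The genotypes did not overlap. Its log2 difference was -0.59 ± 0.21 (edgeR adjusted p = 0.137), and in Acb lysates it stood at 0.27 ± 0.25. The median log2 difference in Acb heavy polysomal fractions was 0.06 over pore and -0.22 over small auxiliary genes. Over all genes with a coding sequence under 1 kb it was -0.35, and over those above 4 kb 0.12; with the trend on coding length removed, the difference between the pore and small auxiliary medians went from 0.28 to 0.10.

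Among genes with at least 50 reads on average, the genotypes did not overlap for 9 of 36 channel genes in Acb heavy polysomal fractions, against 29.1% of all such genes, for 1 of 35 in Acb lysates (7.86%), for 0 of 36 in DS heavy polysomal fractions (11.7%) and for 10 of 35 in DS lysates (15%). In Acb lysates no channel gene reached an unadjusted p under 0.05, where 2.96% of all genes did, and the medians were 0.04 for pore and 0.06 for small auxiliary genes. In DS heavy polysomal fractions 1 of 42 channel genes (2.38%) did, against 6.42% of all genes. In DS lysates 10 of 41 (24.4%) did, against 9.07% of all genes: Cacna1e, Scn1a, Scn2a1, Scn3a, Scn3b, Cacna2d1 and Cacna2d3 were higher in rpS6P-/- mice, and those lower included Hcn2 and Cacnb3. Genes with a coding sequence over 4 kb had a median of 0.12 there and those under 1 kb -0.051.

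Cacna1e came closest to the threshold. In DS lysates it had 149, 151 and 134 CPM in wild-type and 183, 189 and 232 CPM in rpS6P-/- mice, without overlap. In DS heavy polysomal fractions it had 29.9, 69.1 and 90.2 CPM and 149.6, 129.7 and 71.8 CPM, where replicate 3 of each genotype fell within the range of the other. In Acb heavy polysomal fractions it had 99, 81.4 and 97.6 CPM in wild-type and 70.6, 77.2 and 62.4 CPM in rpS6P-/- mice, without overlap. The log2 difference was 0.46 ± 0.11 in DS lysates, 0.90 ± 0.25 in DS heavy polysomal fractions and -0.37 ± 0.16 in Acb heavy polysomal fractions (edgeR adjusted p = 0.0677, 0.322 and 0.2). The difference of the genotype effects, Acb minus DS in heavy polysomal fractions, was -1.25 ± 0.37 (edgeR adjusted p = 0.137); it passed without a filter on low counts (adjusted p = 0.00905), with a replicate block (0.000478), with the block and the transcript length trend removed (0.00204), with all 24 libraries in 1 fit (0.0211) and without wild-type DS heavy polysomal replicate 3 (0.0444). In DS lysates Cacna1e passed the threshold without a filter on low counts (adjusted p = 0.0125), with DESeq2 (adjusted p = 0.00829) and with the block (adjusted p = 0.0209). In DS heavy polysomal fractions it passed without a filter (adjusted p = 0.00179) and with the block (adjusted p = 0.00798). It also passed there without wild-type replicate 2 or 3 or without rpS6P-/- replicate 3 (adjusted p = 0.00971, 0.0415 and 0.0398). Under the other alternatives Cacna1e did not pass. In DS heavy polysomal fractions these included leaving out wild-type replicate 1, the library at 29.9 CPM. Within the DS, the block matched the genotypes by replicate number, a pairing that could not be checked.

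**Figure D5:**
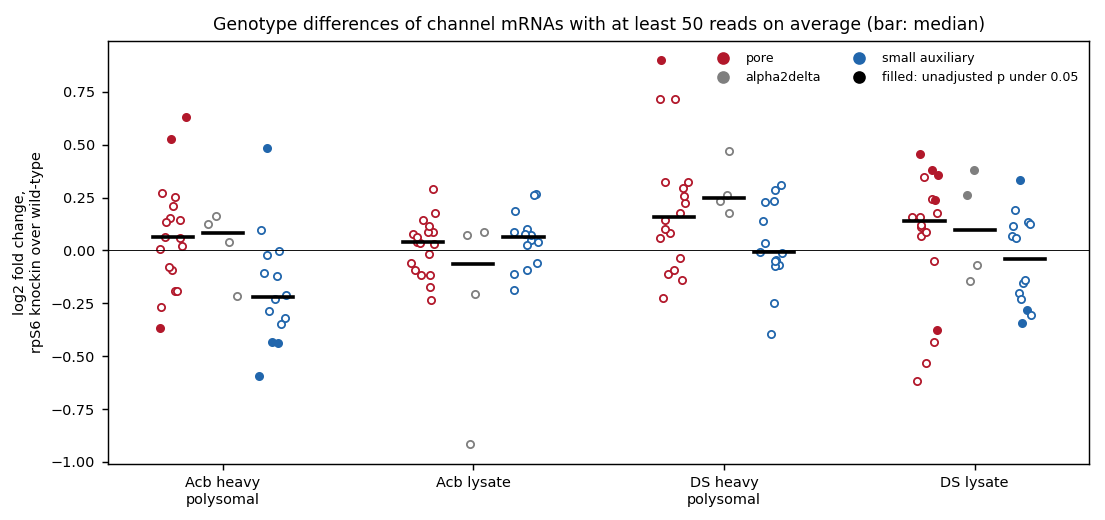
Log2 fold change of rpS6P-/- over wild-type mice (vertical axis) of each channel mRNA with at least 50 reads on average, in heavy polysomal fractions and lysates of the Acb and DS, as 1 point per gene (red pore, grey alpha2delta, blue small auxiliary; filled at an unadjusted p under 0.05) with a bar at the median. In Acb heavy polysomal fractions the blue points lie mostly below 0 (median -0.22) and the red ones around 0.06.

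A list of 41 partner genes of these channels was compared in the same way. In wild-type Acb, 6 were higher and 10 lower in heavy polysomal fractions than in lysates, against 25.9% of all genes called, among them Calm2, a calmodulin gene, at 1.28, and the ankyrins Ank2 and Ank3, which anchor sodium channels, at -0.85 and -0.98. The intracellular FGF homologues Fgf12, Fgf13 and Fgf14, which bind sodium channel pores, were higher, at 0.62, 0.42 and 0.54. Over all genes, the median ratio in wild-type Acb was 0.47 for coding sequences under 1 kb and -0.74 for those over 4 kb. The part of length in the ratios of the partners was not tested. In wild-type lysates 4 partners were higher and 12 lower in the Acb than in the DS, against 12.7% of all genes called, with the cortical excitatory markers lower in the same Acb libraries, whose part was not tested; Pex5l, which traffics HCN channels, had -0.95 and Rims1, an active zone scaffold that binds calcium channels, -0.75. Between genotypes no partner passed the test in heavy polysomal fractions or in Acb lysates, and in DS lysates 1 of 40 did, against 0.122% of all genes, Gria2, the AMPA receptor subunit that limits calcium entry, at 0.41 ± 0.09 (edgeR adjusted p = 0.0437).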

How the data were processed

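RNA from heavy polysomal fractions and whole lysates was sequenced from poly-A selected, strand-specific libraries (50-cycle single reads). The paper states that E. coli sequences contaminated the libraries, and that sequencing was repeated to reach a minimum of mouse reads. Per the labels and the methods, the authors aligned reads with TopHat2 2.0.13 and Bowtie2 2.2.3 to mm10, allowing up to 3 mismatches, and counted them per gene with HTSeq 0.6.1p1; the deposited values are raw counts, 1 column per library, without normalisation. Library sizes limit precision for rare genes, and intervals of counts were not computed.

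From these counts, TMM-normalised CPM and fits across all genes were computed in R 4.3.3 with edgeR 4.0.16 (quasi-likelihood F test, Benjamini-Hochberg adjustment over all genes tested in a comparison, threshold 0.05, genes with at least 15 reads summed over the compared libraries). A heavy polysomal, lysate or region comparison used the 6 libraries of its 2 groups, and translational efficiency and differences between regions used 12. The main fits were unpaired, so a heavy polysomal fraction and its lysate were treated as independent. Pairing entered only in the alternatives with a replicate block. Fold changes in log2 are the values fitted by the test, and a prior count of 2 was used only for log2 CPM of single libraries. Levels per length divide CPM by the transcript length of GENCODE M21. The rule for coding length removed a loess trend (span 0.5) of log2 CPM on log2 coding length from each library; 20427 of 24079 rows, and all 45 channel genes, had a coding length. Scripts were tested on simulated data. The heavy polysomal fraction and the lysate of 1 number came from the same lysate, per the labels, and pair by animal pool, although their deviations from the group means were not correlated (-0.038 to 0.074 over 12 pairs). No 2 replicates agreed within sampling noise.

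The genes and the lists of partners and markers were chosen with earlier results of these data known. All members were counted. Library values were given for genes among 20 listed in the design. They were also given, in each direction of a comparison, for some of the 3 or fewer genes that moved most. Those genes had to pass the threshold, average 50 reads or more and keep their 2 groups apart. Library values of Cacng5, and of Cacng4 between genotypes, were given outside this rule. Cacna1i and the partners were named for their role after values were seen. Alternatives were DESeq2 1.42.0 and its size factors, other count filters, length trends, a replicate block, 1 fit of all 24 libraries, and leaving out each library in turn. The authors' own test of translational efficiency was not run here. Protein sequences were not used here. Some genes of the set are counted but not reported by name.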

Additional observations from a re-analysis of the deposited data

How the results depend on the processing

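Of 101 gene calls in the comparisons, 48 kept direction and call under every alternative without a length correction and 31 under every alternative. Differences below are pore minus small auxiliary medians on the log2 scale. With the trend on transcript length removed, the heavy polysomal over lysate difference was -0.19 in wild-type Acb, 0.020 in rpS6P-/- Acb, -0.19 in wild-type DS and -0.14 in rpS6P-/- DS, and 6 and 9 genes were called in wild-type and rpS6P-/- DS; with a replicate block added (each lysate paired with its heavy polysomal fraction) it was -0.15, 0.028, -0.20 and -0.14, with 7 genes in rpS6P-/- DS. In rpS6P-/- DS this turned the direction of Cacna1b (0.098, with the block 0.11), Cacna1e (0.051, 0.031), Cacna1i (0.043, 0.047), Scn1a (0.19, 0.19), Scn3a (0.16, 0.17) and Scn8a (0.46, 0.44). Scn8a was thereby called higher (edgeR adjusted p = 0.0126, with the block 0.0225). With the trend on coding length removed, an alternative chosen after seeing the data, the difference was 0.24, 0.26, 0.32 and 0.54 in the same order, and 5 genes were called in wild-type Acb, 5 in wild-type DS and 7 in rpS6P-/- DS. It turned the direction of Nalcn (0.17), Scn2a1 (0.002), Scn3a (0.026) and Scn2b (-0.040) in wild-type Acb, of Cacna1a (0.13), Cacna1b (0.27), Cacna1i (0.12), Scn2a1 (0.095) and Scn2b (-0.038) in wild-type DS, and of Cacna2d1 (0.085), Cacna2d3 (0.036), Cacna1b (0.43), Cacna1c (0.25), Cacna1e (0.019), Cacna1g (0.019), Cacna1i (0.18), Scn1a (0.38), Scn2a1 (0.014), Scn3a (0.26) and Scn8a (0.48) in rpS6P-/- DS; between genotypes the difference was then 0.096 in Acb heavy polysomal fractions, 0.044 in DS lysates and 0.040 for Acb translational efficiency. Between regions, 1 fit of all 24 libraries called 9 genes in wild-type lysates; the difference in rpS6P-/- lysates was 0.16 with filterByExpr, 0.13 with a replicate block and 0.065 over genes with at least 50 reads (added after seeing the data), and in rpS6P-/- heavy polysomal fractions 0.37 with the block and 0.35 over those genes; the block called 15 genes in wild-type heavy polysomal fractions. Deviations of libraries sharing a replicate number correlated at -0.26 to 0.22 between regions and -0.29 to 0.32 between genotypes. Of 12 pairs each, 1 and 2 were above 0.1. Pairs from the same lysate did not correlate either (-0.038 to 0.074). This check therefore cannot tell whether replicate numbers pair samples between regions or genotypes. Between genotypes, 1 gene, Cacna1e, was called in DS heavy polysomal fractions and in DS lysates without a count filter or with the block, 2 in DS lysates with DESeq2, and 1 for the difference between regions in heavy polysomal fractions without a filter, with the block, with the block and the transcript length trend removed, or in 1 fit of all 24 libraries. Leaving out each library in turn gave 7 to 16, 6 to 14, 5 to 13 and 10 to 18 calls for heavy polysomal over lysate in wild-type Acb, rpS6P-/- Acb, wild-type DS and rpS6P-/- DS, with differences of -0.80 to -0.48, -0.53 to -0.38, -0.75 to -0.43 and -0.68 to -0.51. Between regions it gave 10 to 12 calls in wild-type lysates, 7 to 13 in rpS6P-/- lysates, 6 to 8 in wild-type and 8 to 13 in rpS6P-/- heavy polysomal fractions, with differences of 0.42 to 0.71, 0.080 to 0.32, 0.17 to 0.46 and 0.40 to 0.59. Between genotypes it gave 0 to 1 calls in DS heavy polysomal fractions and for the difference between regions, and 0 in the others, with differences of 0.20 to 0.34 in Acb heavy polysomal fractions, -0.080 to 0.090 in Acb lysates, -0.031 to 0.26 in DS heavy polysomal fractions, 0.087 to 0.31 in DS lysates, 0.14 to 0.45 and -0.25 to 0.094 for translational efficiency in Acb and DS, and 0.037 to 0.35 for Acb minus DS; for the wild-type fraction difference between regions it was -0.20 to 0.21. Where no reason is given, the cause was not tested. The precision of the rarest genes is limited by their read counts.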
